A study of Homo sapiens with 4 samples.

Results

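The miR-548 family is a large group of primate miRNAs that arose from a transposable element, and its members here are all names in the deposited counts that begin with hsa-miR-548. These were 35 of the 1644 miRNA names, and 184 of the 12689 isoforms, where an isoform is a miRNA name with a given 5′ start and 3′ end. Small RNA was sequenced from HCT116 cells, an established colon carcinoma line, after transfection of pCDNA3 plasmids, in 4 libraries with 1 library per condition and no replicates. The control received the empty plasmid, the wild-type library a mixture of plasmids for wild-type primary miRNAs (pri-miRNAs), and the mutant 1 library variants of the same pri-miRNAs with altered base pairing in the upper stem. Per the study's supplement, the mutant 2 library received another variant of pri-mir-342 filled up with empty plasmid, and all mixtures but the control held an unaltered pri-mir-16-1 plasmid. The study used the plasmids to ask how mismatches and wobble pairs steer DROSHA, the nuclease that makes the first cut in a pri-miRNA. None of the plasmids encoded a miR-548, so the family was read as an endogenous set under each mixture. The counts held no mRNA, so the identity of the line could not be checked against marker genes.

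A miRNA is cut from a hairpin by DROSHA and then DICER, which leaves a 5p and a 3p strand, and the bases at positions 2 to 8 of the strand (the seed) choose its targets. miR-548 hairpins are found in primates and derive from MADE1, a short palindromic DNA transposon that folds back on itself when transcribed. Because copies of the element are scattered through the genome, many miR-548 names differ by a few bases, and the same short sequence can recur at loci that are not annotated as miRNA genes.

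A mature sequence was in the RefSeq table (GRCh38.p14) for 30 of the 35 names, and the others were miR-548a-5p, miR-548aw, miR-548d-5p, miR-548e-3p and miR-548v. The 30 sequences held 21 different seeds, of which 15 belonged to 1 name each. The sequences below are those of the members that the results turn on, 5′ to 3′, with the seed in capitals, and they are ordered by seed. The first 5 share the seed AAAGUAA, the next pair AAAGUAC and the pair after that AAAACUG.
miR-548ab: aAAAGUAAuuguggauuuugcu
miR-548ap-5p: aAAAGUAAuugcggucuuu
miR-548b-5p: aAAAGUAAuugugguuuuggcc
miR-548j-5p: aAAAGUAAuugcggucuuuggu
miR-548w: aAAAGUAAcugcgguuuuugccu
miR-548k: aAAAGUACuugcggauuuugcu
miR-548av-5p: aAAAGUACuugcggauuu
miR-548ar-3p: uAAAACUGcaguuauuuuugc
miR-548f-3p: aAAAACUGuaauuacuuuu
miR-548n: cAAAAGUAauuguggauuuugu
miR-548e-5p: cAAAAGCAaucgcgguuuuugc
miR-548l: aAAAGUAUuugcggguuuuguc
miR-548at-5p: aAAAGUUAuugcgguuuuggcu
miR-548u: cAAAGACUgcaauuacuuuugcg
miR-548b-3p: cAAGAACCucaguugcuuuugu
miR-548ay-3p: cAAAACCGcgauuacucuugca
miR-548al: aACGGCAAugacuuuuguacca
miR-548s: aUGGCCAAaacugcaguuauuuu
The 18-nt miR-548av-5p is the first 18 bases of miR-548k, and the 19-nt miR-548ap-5p is the first 19 bases of miR-548j-5p. The first 20 bases of miR-548ab are also in miR-548n, which is annotated from 1 base further upstream.

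Most of the listed loci lay in introns. The 30 names with a sequence occupied 37 loci in RefSeq, and 25 of these lay in an intron of a protein-coding gene on the same strand by GENCODE v44. A further 4 lay in an intron of a protein-coding gene on the opposite strand only, 3 within a long non-coding RNA gene, and 5 between genes. Exons of these genes overlapped 0 of the 37 loci. The mature miR-548k lay at chr11:70283986-70284007 on the plus strand, in an intron of PPFIA1. miR-548n lay at chr7:34940804-34940825 on the minus strand in DPY19L1, miR-548e-5p at chr10:110988940-110988961 on the plus strand in SHOC2, and miR-548u at chr6:57390180-57390202 on the plus strand in PRIM2. miR-548f-3p had 5 loci, on chromosomes 10, 2, 5, 7 and X, within introns of PCDH15, ERBB4, TMEM232, CNTNAP2 and DMD, on the opposite strand for CNTNAP2. miR-548ab, at chr3:103524085-103524106 on the minus strand, was in no gene.

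The family was a small fraction of the endogenous miRNA reads counted in all 4 libraries. The authors kept reads that aligned unambiguously to hg38, so family reads that aligned to several places may be missing from these levels. It held 2870 reads in the empty vector library, 2803 in wild type, 3189 in mutant 1 and 3255 in mutant 2. Total depth was 14544516 to 19834361 miRNA reads, and levels are given as RPM, the reads per 1000000 reads of the 1608 miRNA names that no plasmid encoded (12241852 to 15134221 reads per library). On this scale the family reached 214 RPM in the empty vector library (95% Wilson interval 207 to 222), 229 in wild type (221 to 238), 227 in mutant 1 (220 to 235) and 215 in mutant 2 (208 to 223). Intervals cover counting error only, since reads carried no molecular identifiers. The 35 names were 2.18% of the untransfected names and 0.0214% to 0.0229% of their reads.

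A single member set the level. miR-548k had 1286 reads in the empty vector library, 1332 in wild type, 1330 in mutant 1 and 1449 in mutant 2, and made up 44.8%, 47.5%, 41.7% and 44.5% of the family's reads. It ranked between 156 and 162 among the untransfected names. Its level was 96.1, 109, 94.8 and 95.7 RPM. miR-548f-3p followed with 480, 423, 565 and 570 reads in the same order of libraries, or 35.9, 34.6, 40.3 and 37.7 RPM. The next 3 names, miR-548e-3p (260, 215, 281 and 281 reads), miR-548n (206, 167, 241 and 238) and miR-548e-5p (204, 167, 189 and 216), lay close together. miR-548n and miR-548e-5p had the same count in the wild-type library and differed by 2 reads in the empty vector library, so their order was not resolved there. Between miR-548k, miR-548f-3p and miR-548e-3p the order was the same in the 4 libraries.

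A middle tier of 7 names lay below that. miR-548u had 62, 60, 85 and 82 reads, miR-548j-5p 55, 72, 64 and 64, miR-548v 40, 46, 72 and 88, and miR-548s 43, 39, 68 and 58. miR-548ay-3p had 59, 35, 43 and 52 reads and miR-548l 37, 26, 30 and 51. The ranges of neighbours in this order overlapped, and the order of these 6 names changed from library to library. miR-548ab was the exception in its spread, with 63 reads in the empty vector library, 139 in wild type, 71 in mutant 1 and 0 in mutant 2.

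The other members were near the limit of detection. miR-548b-3p had 15 to 20 reads per library, miR-548al 9 to 19, miR-548ar-3p 8 to 25, miR-548at-5p 7 to 18 and miR-548a-5p 5 to 17, which completes the 17 names with a mean of at least 10 reads. Another 3 names had at least 10 reads in all, which were miR-548t-5p (4 to 13 per library), miR-548an (6 to 14) and miR-548ap-5p (2, 2, 24 and 0). The last 15 names summed to between 1 and 7 reads each, and 8 names had reads in 1 library only. A count of 0 allowed up to 3 reads, or 0.198 to 0.245 RPM, so absence of these names from a library was not detectable at this depth. In all, 18 of the 35 names had a read in every library.

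**Figure D1:**
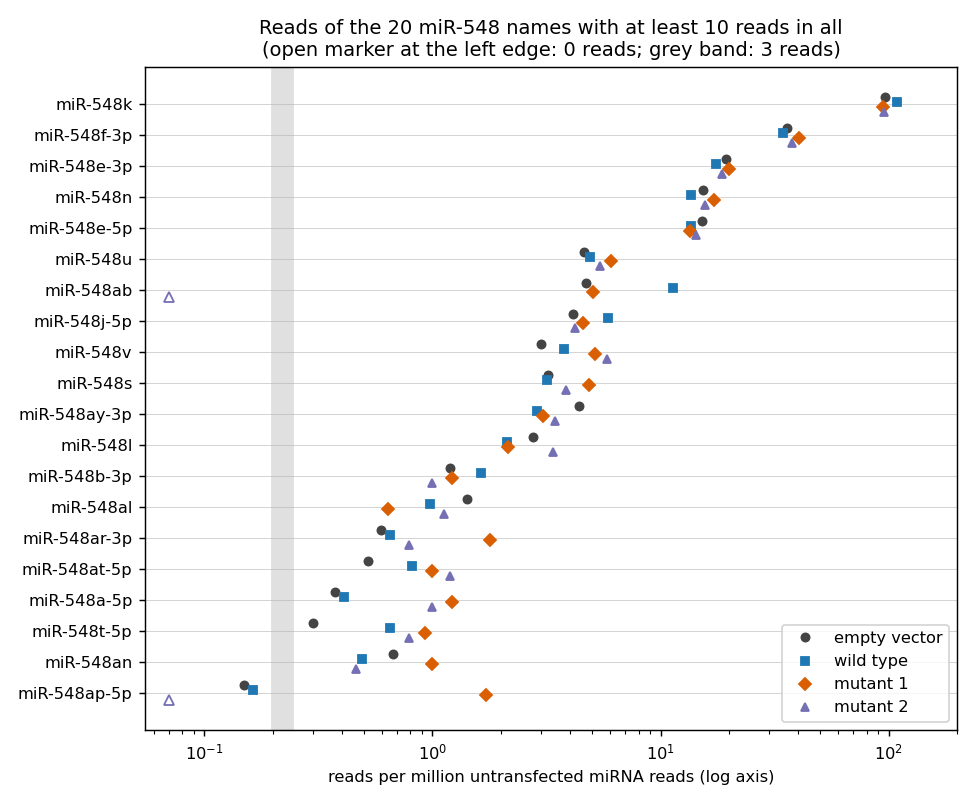
RPM, scaled to untransfected miRNA reads (log axis), of the 20 miR-548 names with at least 10 reads in all, with 1 marker per library and no error bars because there was 1 library per condition. Open markers at the left edge are counts of 0 and the grey band marks 3 reads. miR-548k stands at the top in every library, while miR-548ab and miR-548ap-5p have 0 reads in the mutant 2 library.

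The listed names had fewer genomic matches, by median, than the family members absent from the counts. The authors kept reads that aligned unambiguously to hg38, so the exact matches of each RefSeq mature sequence were counted over both strands of the primary chromosomes. Of the 30 listed names, 20 had 1 match, with a median of 1 and a highest count of 34 for miR-548f-3p. The RefSeq table held 25 further miR-548 names that the counts do not list, and 3 of those had 1 match, with a median of 5 and a highest count of 584. Their reads may have been left out as ambiguous, so absence from the counts does not show absence from the cells. Unlisted names with the most matches were miR-548ar-5p (584), miR-548aq-3p (572), and miR-548aj-5p, miR-548g-5p and miR-548x-5p (550 each). Whether the number of matches bears on which names are listed was not tested.

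The first comparison asked whether endogenous miR-548 levels moved under any of the plasmid mixtures. The family ratio to the empty vector library was 1.07 in wild type (95% interval 1.01 to 1.12), 1.06 in mutant 1 (1.01 to 1.11) and 1.00 in mutant 2 (0.954 to 1.05), directions that turned under other scalings. In wild type the ratio was 0.999 with edgeR's TMM factors and 0.992 with DESeq2's size factors, in mutant 1 it was 1.08 and 1.11, and in mutant 2 0.962 and 0.968. Scaled by all miRNA reads, plasmid products included, it was 0.818 in wild type and 0.815 in mutant 1. The scaling total leaves out miR-16-1-3p and miR-182-5p, which were added by hand to the plasmid-encoded names, and with both kept the ratio was 0.924 in wild type (0.877 to 0.973) and 0.847 in mutant 1 (0.805 to 0.890). The direction in these libraries thus rested on the names counted in the total. Each comparison is 1 library against the same control library, so no test of conditions could be made and none of these ratios has a replicate check.

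Single members were read by a fixed rule of 2-fold, with 0.5 reads added to each count, over names with a mean of at least 10 reads. In wild type 1 of 17 members passed 2-fold, where 6.95% of all 777 untransfected names did (54 names). In mutant 1 it was 3 of 17, against 10% of all names (78), and in mutant 2 it was 3 of 17, against 6.56% (51). The median log2 ratio of the 17 members was 0.08 in wild type, 0.15 in mutant 1 and 0.04 in mutant 2, beside 0.09, -0.07 and 0.05 over all names. The difference between these shares was not tested, and 1 call more or less would change the family's share more than the gap between the shares of all names in the 3 comparisons.

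All but one of the members past 2-fold had few reads. miR-548a-5p had 5 reads in the empty vector library and 17 in mutant 1, a ratio of 3.24 (95% interval 1.20 to 8.79), and 15 in mutant 2, a ratio of 2.65 (0.964 to 7.30). miR-548ar-3p had 8 and 25 reads in empty vector and mutant 1, a ratio of 2.98 (1.34 to 6.61). miR-548al had 19 and 9, a ratio of 0.452 (0.204 to 0.999). These intervals reach from near no change to changes of several fold. miR-548at-5p had 7 and 18 reads in empty vector and mutant 2, a ratio of 2.27 (0.95 to 5.44). With a minimum mean of 20 reads in place of 10, mutant 1 had 0 members past 2-fold and mutant 2 had 1, which was miR-548ab.

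The abundant members moved little. miR-548k had ratios of 1.13 (1.05 to 1.22), 0.987 (0.914 to 1.07) and 0.996 (0.924 to 1.07) in wild type, mutant 1 and mutant 2. For miR-548f-3p they were 0.963 (0.845 to 1.10), 1.12 (0.994 to 1.27) and 1.05 (0.93 to 1.19). miR-548e-5p and miR-548e-3p, the strands of a single hairpin, had ratios between 0.884 and 1.03. miR-548v, with 40 reads in the empty vector library, had ratios of 1.72 (1.17 to 2.53) in mutant 1 and 1.95 (1.34 to 2.83) in mutant 2, both under 2-fold.

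**Figure D2:**
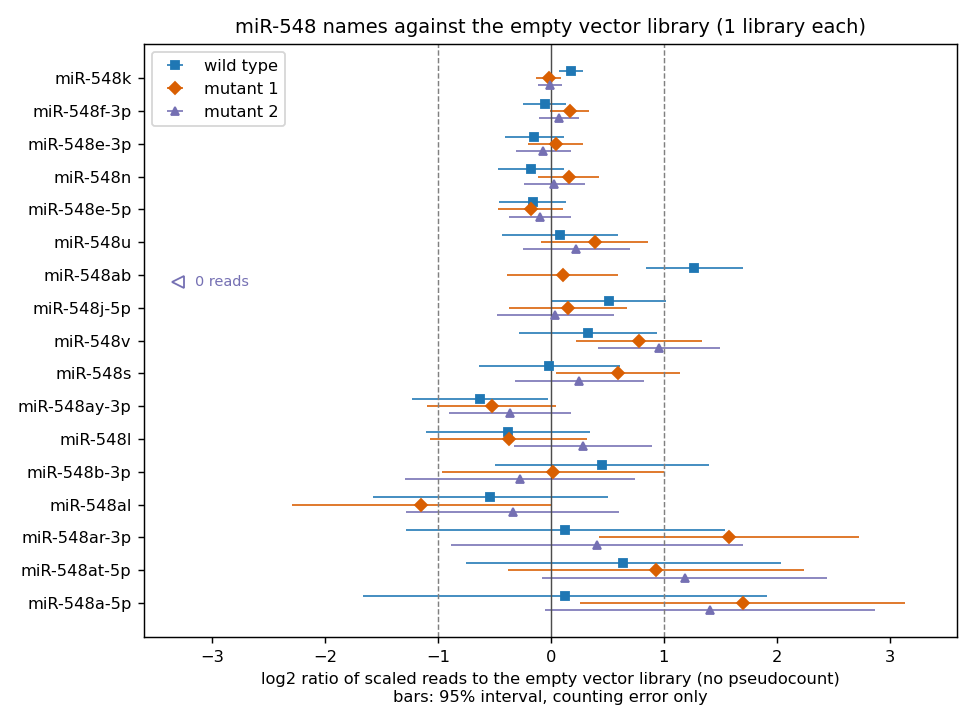
Log2 ratio of scaled reads to the empty vector library for the 17 miR-548 names with a mean of at least 10 reads, without a pseudocount, with 95% intervals that cover counting error only, and dashed lines at 2-fold. Names run from most to fewest reads, so the intervals widen downwards, and miR-548ab in mutant 2, with 0 reads, is drawn as an open arrow.

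miR-548ab, the one deeper member past 2-fold, is a name whose listed isoforms have the same genome sequence as shortened forms of miR-548n. The counts hold no read bases and mismatches at the 3′ end were allowed, so the isoform sequences shown and their matches, here and for miR-548ap-5p, are those of the genome at the listed ends and not of the reads. Its ratio to the empty vector library was 2.41 in wild type (95% interval 1.79 to 3.25) and 1.08 in mutant 1 (0.766 to 1.51). In mutant 2 it had 0 reads. With 3 reads as the floor, it was 23.8-fold lower there than in empty vector and 57.3-fold lower than in wild type. The miR-548ab reads of empty vector and wild type were taken here without counting error. All of its 273 reads fell in 2 isoforms, and both end 2 nt before the annotated miR-548ab end, which leaves out the bases where the annotated sequences differ. They are shown with the miR-548n isoforms they overlap, each with its start and end in nt downstream of the annotated ends.
miR-548ab, start -1, end -2: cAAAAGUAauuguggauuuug
miR-548n, start 0, end 0: cAAAAGUAauuguggauuuugu
miR-548ab, start 0, end -2: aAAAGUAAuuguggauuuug
miR-548n, start +1, end 0: aAAAGUAAuuguggauuuugu
miR-548n, start +1, end +1: aAAAGUAAuuguggauuuuguc
Each miR-548ab form is the miR-548n form beneath it without the last base, so both are also isoforms of miR-548n shortened by 1 nt, and the counts list no such isoform under miR-548n. The first had 63, 49, 71 and 0 reads in empty vector, wild type, mutant 1 and mutant 2, and matched hg38 exactly at 12 places. The second had 0, 90, 0 and 0 reads and matched at 13 places. By contrast, the 3 miR-548n forms had 1 match each and reads in every library, with 63, 48, 68 and 71 reads for start 0, 109, 104, 138 and 142 for start +1 and end +1, and 34, 14, 31 and 21 for start +1 and end 0. The spread of miR-548ab thus came from an isoform that was present in 3 libraries and missing in 1, and from another that was present in 1 library.

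Taken as one pool, miR-548n and miR-548ab had 269, 306, 312 and 238 reads. The ratio of the pool to the empty vector library was 1.24 in wild type (1.06 to 1.46), 1.11 in mutant 1 (0.940 to 1.30) and 0.782 in mutant 2 (0.657 to 0.931). miR-548n alone had ratios of 0.886 (0.723 to 1.09), 1.12 (0.927 to 1.34) and 1.02 (0.848 to 1.23). The departures of the pool in wild type and mutant 2 therefore lay in the reads listed as miR-548ab.

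The pair of miR-548j-5p and miR-548ap-5p showed the same kind of overlap at lower depth. All 3 miR-548ap-5p isoforms extend its 3′ end by 1 nt and are then identical to miR-548j-5p shortened by 2 nt, a form that the counts do not list under miR-548j-5p. The 2 with the most reads are shown with the miR-548j-5p forms they overlap.
miR-548ap-5p, start 0, end +1: aAAAGUAAuugcggucuuug
miR-548j-5p, start 0, end 0: aAAAGUAAuugcggucuuuggu
miR-548ap-5p, start -1, end +1: cAAAAGUAauugcggucuuug
miR-548j-5p, start -1, end 0: cAAAAGUAauugcggucuuuggu
The miR-548ap-5p forms had 0, 2, 14 and 0 reads (16 matches in hg38) and 0, 0, 10 and 0 reads (14 matches). The miR-548j-5p forms, with 1 match each, had 11, 28, 14 and 20 reads for start 0 and 23, 16, 11 and 22 for start -1. As one pool, both names had 57, 74, 88 and 64 reads, with ratios of 1.42 (1.00 to 2.00) in wild type, 1.47 (1.06 to 2.06) in mutant 1 and 0.993 (0.695 to 1.42) in mutant 2. An overlap of miR-548f-3p with miR-548g-3p is described with its loci. The others were small, with 1 read listed as miR-548av-5p that is also an isoform of miR-548k, 4 reads of miR-548ae-3p shared with miR-548x-3p, and 1 read of miR-548am-3p shared with miR-548ah-3p and miR-548p.

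**Figure D3:**
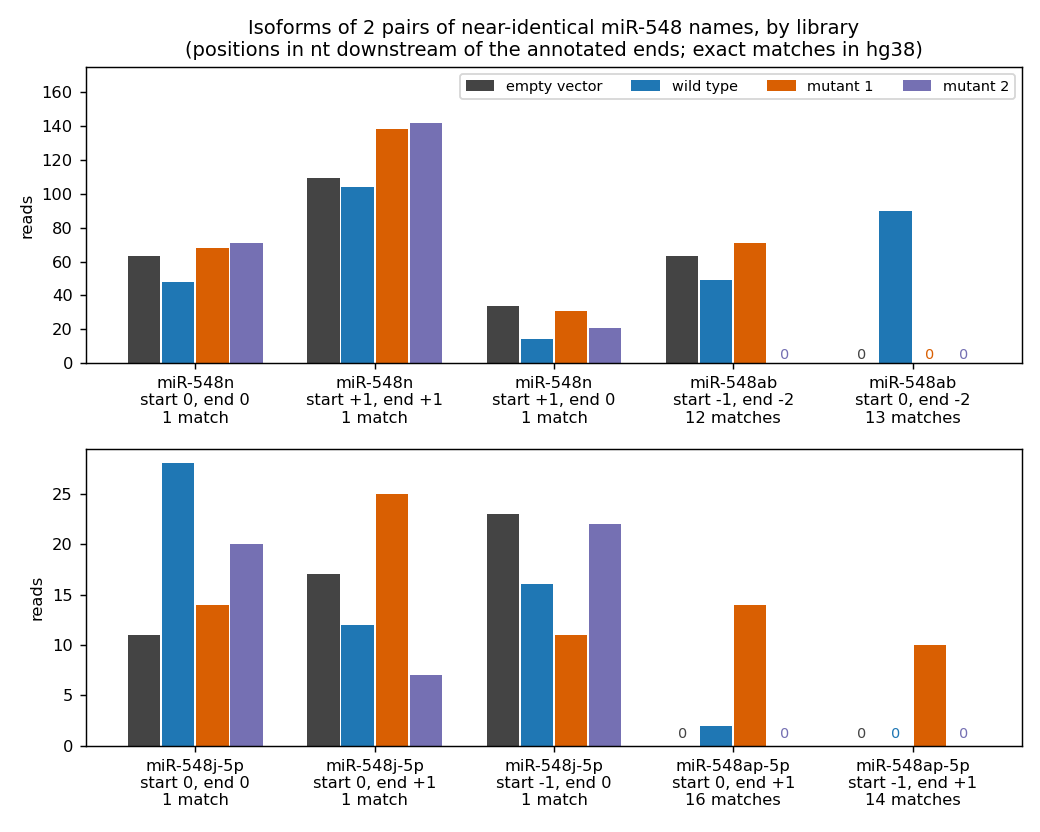
Reads per library of isoforms of miR-548n and miR-548ab (top) and of miR-548j-5p and miR-548ap-5p (bottom), with the start and end in nt downstream of the annotated ends and the number of exact matches in hg38. Of the isoforms drawn, which leave out rarer ones, those with 1 match have reads in all 4 libraries. Those with 12 to 16 matches have reads in 1 to 3 of them, with zeros marked.

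Gaps of this kind sat in isoforms with several genomic matches. Matches were counted as the fewest over an isoform's RefSeq loci, for the 30 family names with a sequence. Of their 147 isoforms, 14 (9.52%) had more than 1 match, with 12.2% of their 10785 reads. For other untransfected miRNAs it was 2.01% of isoforms and 1.28% of reads. By this rule the miR-548f-3p isoform that starts 2 nt and ends 5 nt downstream has 1 match, though its sequence at MIR548F2 has 25. Of family isoforms with at least 20 reads in some library, 4 had several matches and 2 of those were at 0 in another library, both of them miR-548ab. Of the 18 such isoforms with 1 match, 0 were at 0 in any library. Among other untransfected miRNAs the counts were 2 of 47 with several matches and 0 of 2043 with 1 match. Isoforms with 12 to 16 exact matches are listed although the methods keep unambiguous reads, and why such isoforms were listed in some libraries and not in others was not tested.

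The second comparison concerned where reads start and end, which reports the cuts made by DROSHA and DICER and any later trimming or tailing. In the empty vector library 65.4% of family reads began at the start annotated in miRBase (95% Wilson interval 63.6% to 67.1%), beside 94.9% for all other untransfected miRNAs. The shares were 71.2% (69.5% to 72.8%) against 94.9% in wild type, 65.5% (63.8% to 67.1%) against 94.3% in mutant 1 and 67.8% (66.2% to 69.4%) against 94.8% in mutant 2. The family lay at least 23.7 percentage points below the others in every library, with p below 1e-300 in each by two-sided Fisher's exact test on reads. Such a test compares the reads of a library, where a few names carry much of the weight, and not conditions.

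The 2 most abundant members moved that share in opposite directions. miR-548k had 97.9% to 98.6% of its reads at its own start, and without it 39.0% of family reads began at the annotated start in empty vector, 46.9% in wild type, 42.1% in mutant 1 and 43.1% in mutant 2. Without miR-548f-3p, which started mostly downstream, the shares were 78.2%, 83.3%, 79.4% and 81.8%, still 11.6 to 16.7 points below the others. As a median over names with at least 20 reads in a library, the share was 59.5%, 68.6%, 67.3% and 61.9%, beside 94.6%, 94.7%, 95.6% and 94.3% for other names. Of the 20 members with at least 20 reads in all, 3 (15.0%) had their most frequent start elsewhere, miR-548f-3p, miR-548n and miR-548ab, and among other untransfected names 172 of 928 (18.5%) did.

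Between libraries, the share of family reads at the annotated start was 5.81 points higher in the wild-type library than in the empty vector library. The adjusted p of 4.47e-06 (two-sided Fisher's exact test on reads, Benjamini-Hochberg over 14 tests) compares the reads of those 2 libraries only. It treats reads without molecular identifiers as independent, and with 1 library each it says nothing of whether the conditions differ. Without miR-548k the share was 46.9% in wild type and 39.0% in empty vector, a difference of 7.95 points. miR-548k, which starts at the annotated base, made up 47.5% of the family's reads in wild type and 44.8% in empty vector. The share was 0.109 points higher in mutant 1 (adjusted p = 0.935) and 2.44 points higher in mutant 2 (adjusted p = 0.0623). Without miR-548ab, whose 90 wild-type reads at the start were listed in no other library, the wild-type difference was 4.68 points (adjusted p = 0.000312 for the reads of the same 2 libraries). The shares were then 71.5% and 66.8%, in 1 library each.

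The share at the annotated 3′ end depended on single members and on how it was counted. With miR-548k, 60.7% of family reads ended there in empty vector, 61.3% in wild type, 58.4% in mutant 1 and 61.1% in mutant 2, which was 6.82 to 9.78 points above the 48.6% to 53.9% of other untransfected miRNAs (largest adjusted p = 3.42e-13, two-sided Fisher's exact test on reads). Counted within 1 nt of the end, the family was 9.67 to 11.3 points below the others. Without miR-548k the shares were 33.6%, 30.4%, 32.5% and 34.5%, all below the others. Without miR-548f-3p they were 72.9%, 72.1%, 71.0% and 74.1%, all above the others. miR-548k ended at the annotated base in 94.6% of its 5397 reads. Against the empty vector library the family's share differed by 0.524 points in wild type, -2.34 in mutant 1 and 0.374 in mutant 2 (adjusted p = 0.820, 0.0847 and 0.832, two-sided Fisher's exact test).

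**Figure D4:**
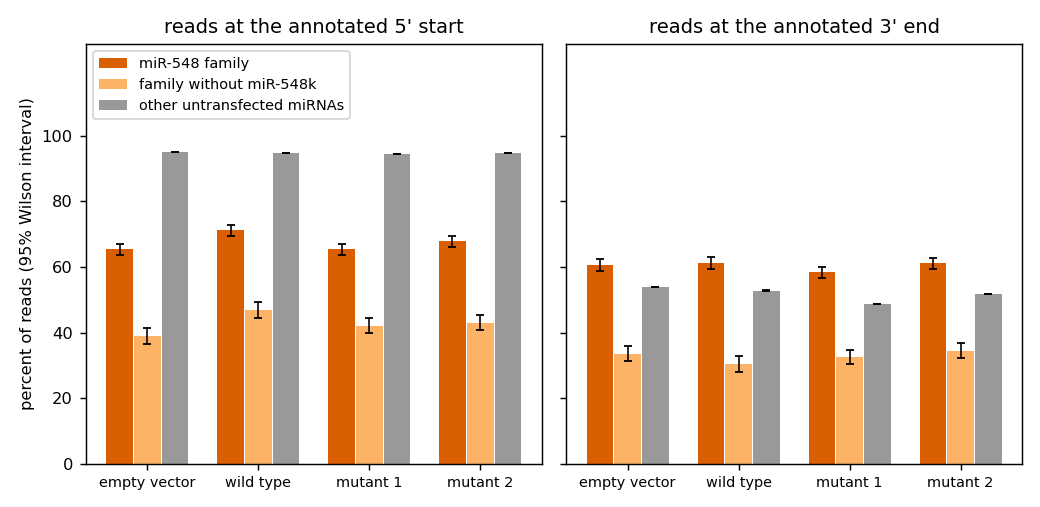
Percent of reads at the annotated 5′ start (left) and 3′ end (right) for the miR-548 family, the family without miR-548k and all other untransfected miRNAs, in each of the 4 libraries, with 95% Wilson intervals. At the start both family bars lie below the others, and at the 3′ end the family lies above them with miR-548k and below them without it.

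The 20 members with at least 20 reads differed in where they start. miR-548k, miR-548u, miR-548l, miR-548b-3p, miR-548ar-3p and miR-548a-5p kept one start, with 94.1% to 100% of their reads at the annotated base over the 4 libraries. miR-548at-5p had 89.8% there. miR-548f-3p and miR-548n started mostly downstream of it. miR-548ab, miR-548j-5p, miR-548ap-5p, miR-548s and miR-548v started partly upstream, in 67.0%, 44.7%, 42.9%, 38.0% and 19.5% of their reads. The other 6 spread to both sides, with 40.4% upstream and 17.5% downstream for miR-548al, 16.1% and 23.2% for miR-548e-5p, 10.6% and 23.5% for miR-548e-3p, 11.6% and 15.9% for miR-548ay-3p, 13.5% and 10.8% for miR-548t-5p, and 13.9% and 8.33% for miR-548an.

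miR-548f-3p showed the widest departure. Of its 2038 reads, 71.6% began 2 nt after the annotated start and 25.3% began 1 nt after it, and 1.67% began at it. In single libraries, the share within 1 to 2 nt downstream was 96.7% in empty vector, 96.2% in wild type, 98.1% in mutant 1 and 96.7% in mutant 2. All of its reads ran past the annotated end, 49.1% by 3 nt, 5.64% by 4 nt and 45.2% by 5 nt, and 5 nt was the largest offset in the counts. Its reads were therefore 20 to 24 nt long where the RefSeq sequence has 19. The share at 3 nt was 234 of 480 reads in empty vector, 208 of 423 in wild type, 278 of 565 in mutant 1 and 281 of 570 in mutant 2. The start split varied more, with 25.8% of reads 1 nt downstream in empty vector, 28.4% in wild type, 28.0% in mutant 1 and 20% in mutant 2.

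The bases beyond the annotated end differ among the 5 loci of miR-548f-3p, and they are shown for the frequent isoform that starts 2 nt and ends 5 nt downstream (159, 125, 186 and 208 reads in empty vector, wild type, mutant 1 and mutant 2).
MIR548F1: aAACUGUAauuacuuuuggacc
MIR548F2: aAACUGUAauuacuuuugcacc
MIR548F3: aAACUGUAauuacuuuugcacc
MIR548F4: aAACUGUAauuacuuuuggaac
MIR548F5: aAACUGUAauuacuuuuguacc
The MIR548F1 and MIR548F4 sequences each had 1 match in hg38, the MIR548F2 and MIR548F3 sequences are identical and had 25, and the MIR548F5 sequence had 7. The counts give a name and its ends but not the bases of the reads, so the locus that gave these reads cannot be told apart from them. The isoform ending 3 nt downstream, with 169, 143, 197 and 218 reads, had 2 matches at MIR548F1 and MIR548F4, 37 at MIR548F2 and MIR548F3 and 7 at MIR548F5. With the MIR548F5 sequence, 7 of the 10 miR-548f-3p isoforms, which hold 2004 of its 2038 reads, are also isoforms of miR-548g-3p, a name without reads in the counts. The annotated miR-548g-3p start is the base 1 nt downstream of the miR-548f-3p start, so on that reading the shift of most starts would be 1 nt less. With the sequences of the other 4 loci, 0 isoforms are shared with miR-548g-3p.

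miR-548n began 1 nt downstream of its annotated start in most reads, with 143 of 206 in empty vector, 118 of 167 in wild type, 169 of 241 in mutant 1 and 164 of 238 in mutant 2. The share at the annotated start was 29.3% to 30.6% in the 4 libraries for the reads listed as miR-548n. With the reads listed as miR-548ab added, the share at the miR-548n start was 46.8% in empty vector (126 of 269), 32.0% in wild type (98 of 306), 45.5% in mutant 1 (142 of 312) and 29.8% in mutant 2 (71 of 238). Of all its reads, 58.7% ended 1 nt past the annotated end and 41.2% at it. The commonest miR-548n form was therefore the annotated one moved downstream by 1 nt at both ends.

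The strands of the miR-548e hairpin both had a second window. miR-548e-5p began at the annotated base in 60.7% of its 776 reads, 1 nt downstream in 22.9% and 3 nt upstream in 12.2%. These forms follow in that order, and the last has the same length as the annotated one.
miR-548e-5p, start 0, end 0: cAAAAGCAaucgcgguuuuugc
miR-548e-5p, start +1, end 0: aAAAGCAAucgcgguuuuugc
miR-548e-5p, start -3, end -3: gUACAAAAgcaaucgcgguuuu
The reads starting 3 nt upstream were 28, 16, 21 and 30 in empty vector, wild type, mutant 1 and mutant 2, or 13.7% (9.67% to 19.1%), 9.58% (5.98% to 15.0%), 11.1% (7.38% to 16.4%) and 13.9% (9.91% to 19.1%), and these intervals overlapped. miR-548e-3p began at the annotated base in 65.9% of 1037 reads and 1 nt upstream in 10.6%. Another 18.8% of its reads started 2 or 3 nt and ended at least 2 nt downstream of the annotated positions, with 46, 36, 51 and 62 reads in the 4 libraries. These windows lay further from the hairpin loop on both strands, upstream on the 5p strand and downstream on the 3p strand. Whether they came from the same molecules cannot be told from counts of single strands.

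miR-548s began at the annotated base in 58.7% of its 208 reads and 2 nt upstream in 31.7%, and none of its reads reached the annotated 3′ end, the nearest form being 1 nt short of it.
miR-548s, start 0, end -1: aUGGCCAAaacugcaguuauuu
miR-548s, start -2, end -3: uAAUGGCCaaaacugcaguuau
The shares starting 2 nt upstream were 39.5% in empty vector (26.4% to 54.4%), 23.1% in wild type (12.6% to 38.3%), 30.9% in mutant 1 (21.2% to 42.6%) and 32.8% in mutant 2 (22.1% to 45.6%), and all of these intervals overlapped. miR-548j-5p began 1 nt upstream in 25 of 55 reads in empty vector, 26 of 72 in wild type, 20 of 64 in mutant 1 and 37 of 64 in mutant 2. miR-548al split its 57 reads between the annotated start (42.1%), 1 nt upstream and 1 nt downstream.

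Starts set the seed, so the seeds of the reads differed from the list of annotated seeds. Over the 30 names with a sequence, 34.6% of reads in empty vector, 29.0% in wild type, 35.2% in mutant 1 and 32.2% in mutant 2 had a seed other than the one annotated for their name. Of the 888 such reads in empty vector, 124 were miR-548f-3p reads with the seed annotated for miR-548g-3p. Another 63 were miR-548ab reads with the seed annotated for miR-548n. The share thus depended in part on the name a read was listed under. AAAGUAC, the seed of miR-548k, was in 46.3% to 51.5% of reads. The second was AACUGUA, from miR-548f-3p reads starting 2 nt downstream, in 13.3%, 11.3%, 14.1% and 15.2% of reads. It is the annotated seed of 0 of the 30 names. AAACUGU, from its reads starting 1 nt downstream, was in 4.84%, 4.74%, 5.61% and 3.97%, and is in RefSeq the seed of miR-548g-3p, a name not listed in the counts.

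The seed AAAGUAA, which 5 listed names share by annotation, was mostly read from a name annotated with another. It was in 6.67% of reads in empty vector, 10.1% in wild type, 7.98% in mutant 1 and 6.66% in mutant 2, and 70.5% of the 842 reads were listed as miR-548n, whose annotated seed AAAAGUA is the same frame shifted by 1 base. The highest share, in wild type, included the 90 reads of miR-548ab at its annotated start. AAAAGUA itself was in 636 reads, of which 39.9% were listed as miR-548n and the rest under 4 names.

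Family reads were shorter on average than other miRNA reads, and miR-548k carried much of their peak at 22 nt. Among names with a sequence, 70.1% of family reads in empty vector were 22 nt long, 70.5% in wild type, 69.5% in mutant 1 and 73.8% in mutant 2, beside 37.5% to 38.6% of reads of other untransfected miRNAs. Reads of 23 nt made up 6.67% to 7.95% of the family and 34.8% to 37.6% of the others. Without miR-548k the family's share at 22 nt was 45.0% to 53.8%, and its reads spread over neighbouring lengths, with 15.4% to 20.5% at 20 nt, 16% to 23.6% at 21 nt and 12.5% to 13.6% at 23 nt. The mean length was 21.8 nt in each library for the family and 22.4 to 22.5 nt for the others.

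The balance of arms depended on names that carry no arm label. Over the 20 names that end in -5p or -3p, 3p reads were 74.7% (95% Wilson interval 72.1% to 77.2%) in empty vector, 72.6% (69.7% to 75.3%) in wild type, 74.6% (72.1% to 76.9%) in mutant 1 and 74.1% (71.6% to 76.4%) in mutant 2. The 15 other names include miR-548k and miR-548n. With each locus placed in its GENCODE hairpin, which covered 17 names as 5p and 13 as 3p and left out the 5 names without a sequence, the 3p share was 26.9%, 23.6%, 29.3% and 28.2%. With the arm taken from the seed, which kept miR-548e-3p but left out miR-548v and miR-548aw, it was 31.4%, 27.7%, 33.1% and 32.1%. That rule placed miR-548s (208 reads) and miR-548al (57 reads) on the 5p arm, where their hairpins place them on the 3p arm. Other untransfected miRNAs with an arm in the name had 23.8% to 28.4%. The labelled names thus had the opposite balance of arms from the family with its unlabelled members placed.

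Both strands were listed for 3 hairpins. miR-548e was split, with 56.0% of reads on the 3p strand in empty vector (51.5% to 60.5%), 56.3% in wild type (51.3% to 61.2%), 59.8% in mutant 1 (55.3% to 64.1%) and 56.5% in mutant 2 (52.1% to 60.8%). The 4 intervals overlapped. Among the reads kept, miR-548at was almost all 5p, with 49 reads of miR-548at-5p and 4 of miR-548at-3p. miR-548b was almost all 3p, with 68 reads of miR-548b-3p and 1 of miR-548b-5p. The annotated miR-548b-5p had 26 exact matches in hg38, and miR-548b-3p and both miR-548at strands had 1 each. Since the authors kept unambiguous reads, the split of miR-548b may not be that of its strands in the cells.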

How the data were processed

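Small RNA libraries (TruSeq Small RNA kit, total RNA) of transfected HCT116 cells were analysed from the authors' raw counts per miRNA isoform. Per the paper's methods, the authors trimmed adapters with cutadapt, kept reads of 18 to 26 nt, aligned them to hg38 with Bowtie2, kept unambiguous reads with mismatches only at the 3′ end, and assigned them to miRBase v22 loci. The deposited counts are not normalized, and the deposited offsets give the start and end relative to miRBase, at most 5 nt away. Their sign was read from lengths: with both counted inwards, 100% of 10981 isoforms with a RefSeq sequence were 18 to 26 nt long, and at most 93.3% under another convention. The text counts offsets downstream. A second deposited table gives other positions, those of mature miRNAs in the cloned pri-miRNAs, and 36 names taken as plasmid-encoded were left out of the scaling total. These were 14 mutant sequences, 20 names in that table, and 2 added by hand, miR-16-1-3p and miR-182-5p, as the other strands of pri-miRNAs listed there. Depth was 14544516 to 19834361 counts per library. Reads carried no molecular identifiers, so intervals cover counting error only, and tests on reads compare libraries, not conditions.

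Isoforms were summed per name, in Python 3.11.15 with pandas 2.3.3 and scipy 1.17.1. Ratios used a 95% normal interval on the log scale, and shares a Wilson interval. Names were described by these rules: a mean of at least 10 reads, a change past 2-fold, a most frequent start off the annotated base with at least 20 reads, or a sequence shared with such a name. TMM factors came from edgeR 4.0.16 and size factors from DESeq2 1.42.0, in R 4.3.3. Isoform sequences were read from hg38 at RefSeq loci (GRCh38.p14) and matched exactly to the primary chromosomes. The functions were tested on simulated data. With 1 library per condition no test of conditions was run. Members and lists were chosen with earlier results of these data known. Alternatives covered the scaling, read minimum, pseudocount, fold, annotated start, most abundant member, and arm assignment, and after seeing the data the unique isoforms, miR-548ab, miR-548f-3p, hairpin arms and the names added by hand.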

Additional observations from a re-analysis of the deposited data

How the results depend on the processing

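No paired analysis was possible because each condition had 1 library, with no replicate numbers to share. Of the alternative values, 87 kept their direction and size class, 60 moved, 26 turned their direction and 2 passed the threshold, and the cause was not tested. The alternatives restricted to isoforms with 1 genomic match, without miR-548ab or miR-548f-3p, with arms from the hairpin, or with the 2 names added by hand kept in the total were chosen after seeing the data. Values follow in the order empty vector, wild type, mutant 1 and mutant 2, where a result has that many. The family level of 214, 229, 227 and 215 RPM became 197, 161, 161 and 190 by all miRNA reads, and 12658, 6588, 6472 and 5176 by miR-16-5p, which the plasmids also encoded. With the names added by hand kept in the total it was 205, 189, 174 and 206, and the ratio to empty vector 0.924 in wild type and 0.847 in mutant 1. It was 140, 163, 149 and 146 from isoforms at the annotated start, 118, 120, 133 and 119 without miR-548k, and 169, 178, 174 and 171 from isoforms with 1 match. The wild-type ratio to empty vector was 0.818 by all reads, 0.520 by miR-16-5p, 0.999 by TMM, 0.992 by DESeq2's factors and 1.16 from annotated starts. The mutant 1 ratio was 0.815 by all reads, 0.511 by miR-16-5p, 1.12 without miR-548k and 0.993 against wild type, and the mutant 2 ratio 0.409 by miR-16-5p and 0.939 against wild type.

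Members past 2-fold in wild type (1) became 8 by miR-16-5p, 11 with at least 1 read, 3 past 1.5-fold and 0 among isoforms with 1 match. In mutant 1 (3) they became 7 by miR-16-5p, 13 with at least 1 read, 6 past 1.5-fold, and 0 at a mean of at least 20 or 50 reads. In mutant 2 (3) they became 13 by miR-16-5p, 15 with at least 1 read, and 1 at a mean of 20 or 50, a pseudocount of 5 reads, or isoforms with 1 match. All 35 members had at least 1 read, against 20 with 10.

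As a median over names, the family's 5′ start share differed from that of other miRNAs by -35.1 points in empty vector, -26.1 in wild type and -32.3 in mutant 2, and from the empty vector library by 9.03 in wild type and 7.73 in mutant 1. Within 1 nt of the start, the family differed from other miRNAs by between -12.8 points, in wild type, and -16.9, in mutant 2. Wild type then differed from empty vector by 2.72 points. Counted within 1 nt of the start, mutant 1 and mutant 2 differed from empty vector by -0.355 and -1.34 points, and without miR-548k mutant 2 differed by 4.13 (adjusted p = 0.0221) and without miR-548f-3p by 3.51 (adjusted p = 0.00271), by Fisher's exact test on the reads of 2 libraries. The 3′ end share against other miRNAs turned to -20.3, -22.4, -16.1 and -17.4 points without miR-548k, to -11.2, -11.1, -11.3 and -9.67 within 1 nt, and to -0.989, -0.685 and -8.47 as a median over names in empty vector, wild type and mutant 1. Against empty vector, it turned in wild type to -3.20 without miR-548k, -0.786 without miR-548f-3p and -0.0819 within 1 nt, and in mutant 2 to -0.989 without miR-548ab, where it moved to 10.5 as a median. The 3p share was 31.4%, 27.7%, 33.1% and 32.1% by seed and 26.9%, 23.6%, 29.3% and 28.2% by hairpin, and without the top member of each arm 82.1% in empty vector and 76.6% in mutant 2.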
